A study of Mus musculus with 100 samples.

Results

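The genes that write, maintain and remove DNA methylation were followed through mouse stem cells, their differentiated cultures and whole embryos. The 8 genes were taken by symbol: Dnmt1 and Uhrf1 for maintenance, Dnmt3a, Dnmt3b and Dnmt3l for new methylation, and Tet1, Tet2 and Tet3 for oxidation. All 8 were found among the 23109 gene-level entries of the tables, each represented by its transcript with the most reads.

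The study concerns MLL3 and MLL4 (Kmt2c and Kmt2d), which methylate histone H3 lysine 4, in early development and stem cell differentiation. Of 100 samples, 37 RNA libraries in 18 groups were used, and the other 63, among them a neural day 8 library labelled Mll34DKO65, were not analysed here. The protocol describes poly(A) selection for all RNA libraries, while the labels name total RNA for those of embryos, TE and ExEn. All cultured cells are Mll3-/-. Flox cells are Mll3-/- and Mll4flox/flox, and KI cells are Mll3-/- and Mll4KI/KI. The labels do not spell out KI. Embryonic stem cells (ESCs, day 0) were kept with inhibitors of MEK and GSK3 and with LIF. Embryoid bodies (EBs) grew in suspension without LIF to day 4 or day 10. Neural cultures received retinoic acid after day 4 and were sampled as progenitors at day 8 and, after plating, as neurons at day 16. Trophectoderm cultures (TE) carried a doxycycline-inducible lentiviral CDX2 with a T7 tag and were sampled at day 6. Extraembryonic endoderm cultures (ExEn) were grown for 5 days in retinoic acid and Activin A. Whole embryos, taken at E8.5 or E9.5, all carry Mll3flox/KI and Sox2-Cre, with Mll4flox/KI in KI embryos and Mll4flox/+ in controls.

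These groups have limits as models. KI cells are the 2 clones 27 and 48, and the flox cells of ESCs and EBs are 1 library per day. Sox2-Cre acts in the epiblast, so extraembryonic tissue of an embryo need not carry the recombined allele. Neural, TE and ExEn groups hold 2 libraries each and embryo groups 3. The labels do not say that replicates are separate cultures, so p-values measure the spread between these libraries. In bulk RNA, fewer cells of a type and less RNA per cell cannot be told apart.

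DNA methylation at CpG sites is copied after replication by DNMT1, which UHRF1 brings to half-methylated DNA. DNMT3A and DNMT3B set new methylation, and DNMT3L, which has no catalytic activity, stimulates them. TET enzymes oxidise methylated cytosine and so start its removal. Naive stem cells are known for low methylation and high Tet1 and Tet2, and the epiblast gains methylation around implantation.

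Gene-level totals ran from 18.9 to 59.9 M reads per library. Levels are CPM, read counts scaled to a common library size, after TMM scaling over all 37 libraries, and levels of different genes are compared only per length, as the deposited RPKM. Tests are edgeR quasi-likelihood tests with p-values adjusted over all genes tested, and genes are said to be called where that p is below 0.05. The labels could be checked against marker genes. Pou5f1, the core pluripotency factor, averaged 1720.1 CPM in flox ESCs and had 3 reads or fewer in flox neurons, where the neuronal tubulin Tubb3 averaged 871 CPM against 115 in flox ESCs. Gata4 and Sox17, which define extraembryonic endoderm, averaged 181 and 78.6 CPM in flox ExEn but 16.7 and 11.4 in KI ExEn. TE cultures still held pluripotency RNA, with Pou5f1 at 214 CPM in flox and 84.5 in KI. Of their 8 trophoblast markers 6 were called higher in KI and 1 lower: Cdx2, a trophoblast factor, averaged 27.5 CPM in flox and 103 in KI, and Elf5, the one called lower, 16.9 and 1.2. Reads of Cdx2 may come from the inducible construct, so Cdx2 does not check the TE label. In KI ExEn, the endoderm markers Apoa1 and Ttr had 3 reads or fewer in each library. The trophoblast markers summed to 3040.1 to 3103.6 CPM in flox TE and to 3192.2 to 3202.3 in flox ExEn, so their sum does not separate these cultures.

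Promoter sequences are shown for Uhrf1 and Dnmt1, whose levels are set beside those of replication genes below, and for Dnmt3b and Dnmt3l, both lower in KI TE and KI ExEn. No link between these sequences and expression was tested. Windows of 300 bases (250 before and 50 after each start) come from RefSeq, build GRCm38.p6, where all 8 genes matched with 15 windows among 32851. They were not matched to the transcripts counted. The E2F-type motifs TTTCCCGC, TTTGGCGC, TTTCGCGC and TTTGCCGC, searched on both strands without merging overlaps, occurred in 2.26% of all windows and in 2 of the 15, 1 of Dnmt1, with 2 matches, and 1 of Uhrf1. For each, 1 match is shown, with the motif or its reverse complement in capitals. The Dnmt1 stretch is chr9:20952824-20952853, minus strand, and the Uhrf1 stretch is chr17:56304117-56304146, plus strand.
Dnmt1: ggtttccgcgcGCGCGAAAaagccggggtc
Uhrf1: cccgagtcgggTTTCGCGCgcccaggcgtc

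The 250 bases upstream of the start of Dnmt3b and of the first of the 3 starts of Dnmt3l are shown with each CpG in capitals, since CpG sites are what these enzymes methylate. The Dnmt3b stretch (chr2:153649199-153649448, plus strand) holds 21 CpG sites, and 16.3% of all windows hold as many. The Dnmt3l stretch (chr10:78042037-78042286, plus strand) holds 5, near the median of 6 over all windows, and 55.6% hold as many. No window of Dnmt3b or Dnmt3l held the motif above, which says nothing about the factor beyond these letters. Methylation itself was not measured in the RNA tables.
Dnmt3b: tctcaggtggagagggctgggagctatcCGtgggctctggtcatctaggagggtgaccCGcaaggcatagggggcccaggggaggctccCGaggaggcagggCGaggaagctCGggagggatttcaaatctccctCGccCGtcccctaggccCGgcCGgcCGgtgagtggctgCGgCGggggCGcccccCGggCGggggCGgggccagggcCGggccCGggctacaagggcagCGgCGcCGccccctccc
Dnmt3l: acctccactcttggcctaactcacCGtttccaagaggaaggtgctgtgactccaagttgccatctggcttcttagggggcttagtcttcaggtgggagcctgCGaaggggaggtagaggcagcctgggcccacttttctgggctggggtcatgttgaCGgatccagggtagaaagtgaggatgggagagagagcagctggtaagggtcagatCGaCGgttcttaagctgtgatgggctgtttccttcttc

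Of the 8 genes, Dnmt1 had the narrowest range across the 37 libraries. It ranged from 141 to 604 CPM with a median of 421, a 3.98-fold span between the highest and lowest group means. The highest libraries were ESCs (597 CPM in the flox library, 574 and 604 in KI) and TE KI (588 and 515), and the lowest were flox neurons (141 and 158). The ESC and TE KI libraries overlapped. Uhrf1, at 12.1 to 868 CPM, spanned 67.8-fold, from 868 in the flox ESC library to 12.1 and 13.6 in KI neurons. Its order was clearly stepped, with 15 of 17 neighbouring groups not overlapping, against 10 of 17 for Dnmt1.

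Among the de novo genes, Dnmt3b had the widest range that could be measured, 1.64 to 1403.2 CPM, or 805-fold between group means. It peaked in day 4 EBs (813 in flox, 1351.1 and 1403.2 in KI) and was lowest in KI neurons (1.64 and 1.77). Dnmt3a ran from 67.1 CPM in the flox ESC library to 635 and 627 in day 4 KI EBs, a 9.4-fold span, and 10 of its 17 neighbouring groups overlapped. Dnmt3l was present in ESCs, day 4 EBs, TE and ExEn, at most 95.9 CPM in a flox TE library. In the neural and embryo libraries it had 0 to 7 reads and did not pass the filter on low counts. Summing its 2 transcripts, whose counts are equal in every neural library, enters each neural count 2 times and takes it past the filter, so the calls made that way between neural days (edgeR adjusted p = 0.037 in flox and 0.0227 in KI) carry no weight. It was not called between those days with no filter (0.0849 and 0.0586) or by DESeq2 (0.325 and 0.125). On the TMM scale 3 reads equal 0.055 to 0.185 CPM over the 37 libraries, the limit that a count of 0 allows for counting error only.

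Among the TET genes, Tet1 was highest in ESCs (435 CPM in flox, 480 and 507 in KI) and lowest at E9.5 in controls (19.1 to 19.7) and in 1 TE KI library (17.8). Tet2 was highest in the flox ESC library (128) and lowest in day 4 EBs (12.8 in flox, 11.2 and 9.89 in KI). Tet3 had its lowest levels in ESCs, from 6.34 CPM in the flox ESC library to 241 and 240 in flox neurons and 249 in a day 10 KI EB library. Group ranges of Tet3 did not overlap between ESCs and any other group.

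**Figure D1:**
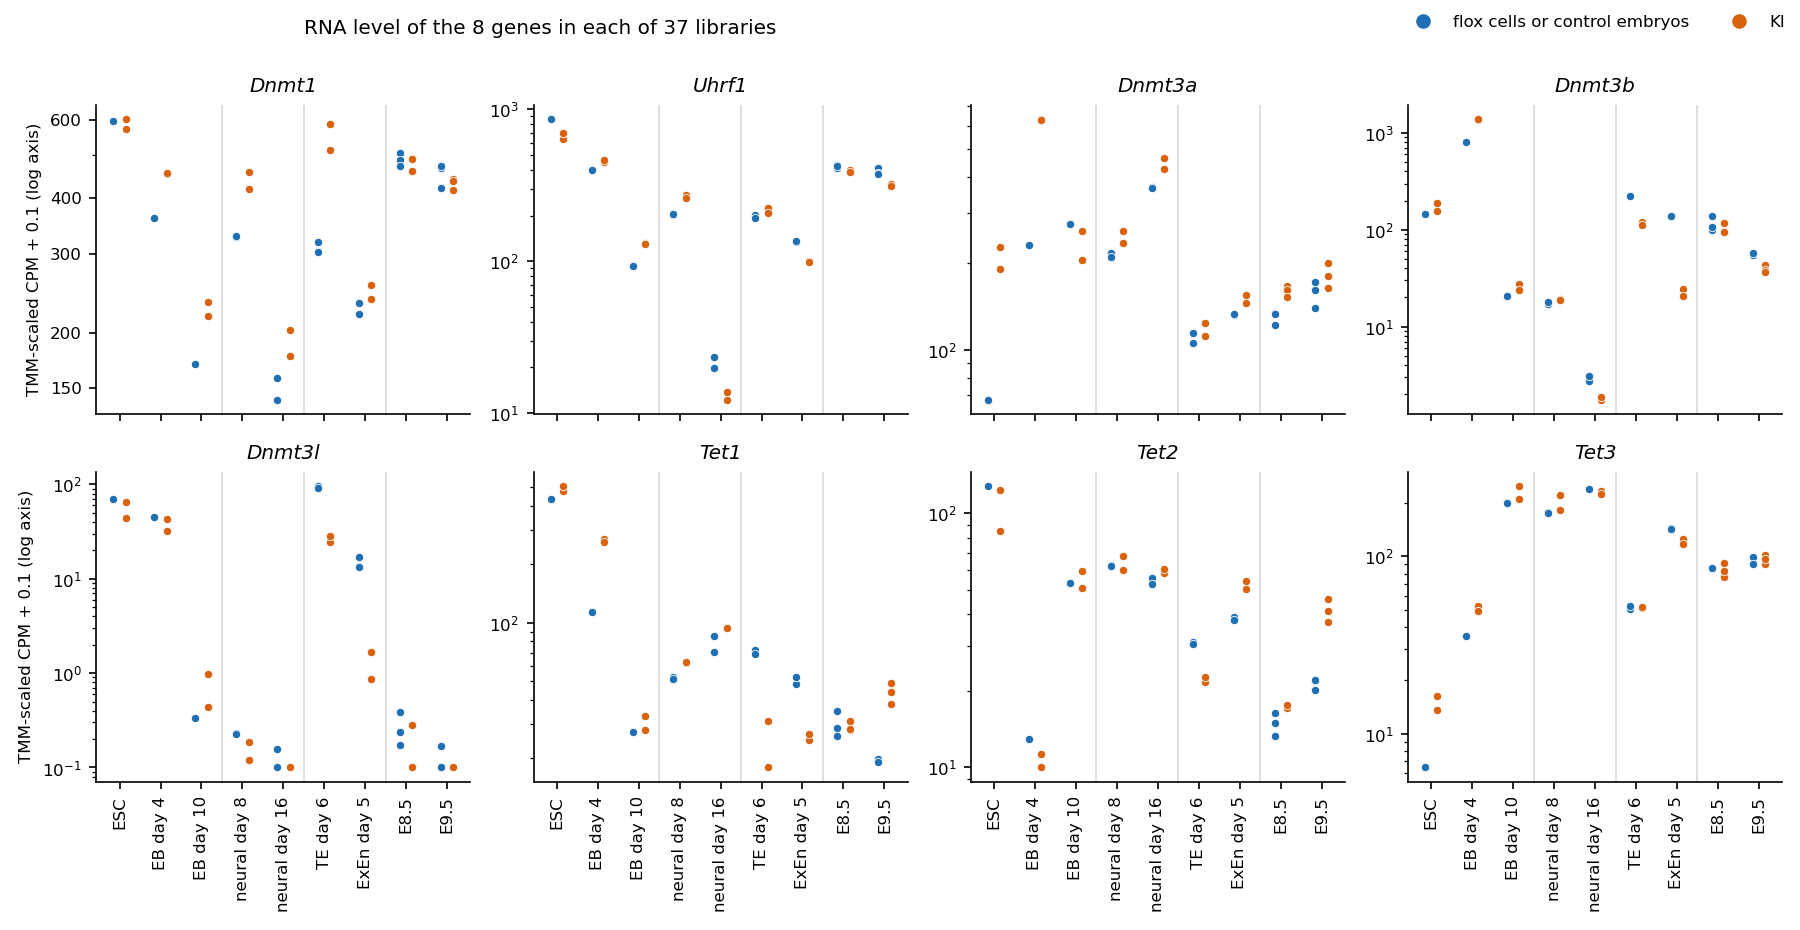
Each point is 1 library, on a log axis of TMM-scaled CPM with a small offset, for flox cells or control embryos (blue) and KI (orange). Dnmt3b and Dnmt3l fall by orders of magnitude from day 4 EBs to day 10 EBs and neural cultures, while Tet3 rises from 6.34 CPM in the flox ESC library to about 240 CPM in flox neurons.

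Per length, the makeup of each family switched with differentiation. In the flox ESC library Dnmt3l made up 50.2% of the summed RPKM of the 3 de novo genes, Dnmt3b 41.4% and Dnmt3a 8.4%. In the KI ESC libraries Dnmt3b made up 42.9% ± 8.8 (SD, n = 2), Dnmt3l 34.2% ± 7.2 and Dnmt3a 22.8% ± 1.5. Dnmt3b made up 78.9% in the day 4 flox EB and 78.5% ± 1.4 (SD, n = 2) in KI. From day 10 and in all neural groups Dnmt3a led, with 85.1% in the flox EB and 98.3% ± 0.1 in flox neurons.

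Tet1 made up 68.0% of the TET RPKM in the flox ESC library and 73.5% ± 3.4 in KI ESCs. In day 10 EBs, neural cultures, ExEn and embryos Tet3 was the largest share, from 53.8% ± 1.3 (n = 3) in E9.5 KI embryos to 72.0% ± 3.4 (n = 2) in day 10 KI EBs. In flox TE Tet1 made up 38.3% ± 0.8 and Tet3 36.0% ± 1.0 (n = 2). In KI TE Tet1 made up 19.3% ± 5.7, against 19.5% ± 0.2 in KI neurons, and Tet3 led with 53.4% ± 4.0. Dnmt1 and Uhrf1 were close per length in flox neural progenitors, at 42.4 and 39.5 RPKM. In flox neurons Dnmt1 was at 19.6 RPKM and Uhrf1 at 4.24.

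**Figure D2:**
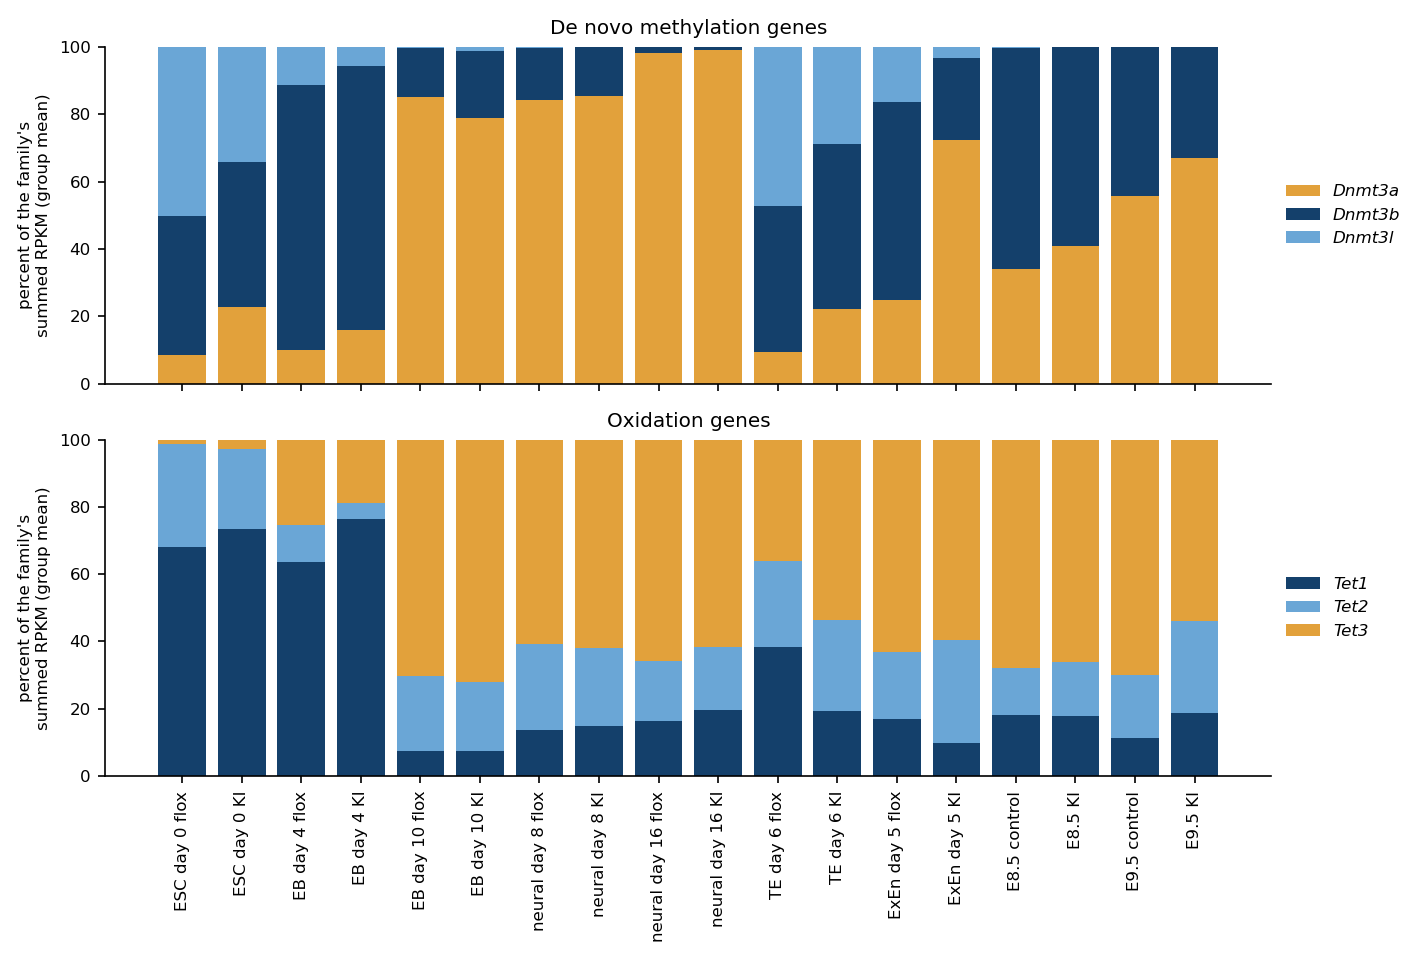
Bars give each gene's percent of its family's summed deposited RPKM, averaged over the libraries of a group. Dnmt3a takes 98.3% of the de novo total in flox neurons, and Tet3 is the largest TET share in all groups except ESCs, day 4 EBs and flox TE.

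The EB course asked how the genes change as ESCs leave the naive state. From day 0 to day 4, over both genotypes, 7 of the 8 genes were called, where 46.1% of all genes were. Dnmt3a, Dnmt3b and Tet3 rose (24.5% of all genes were called higher), and Dnmt1, Uhrf1, Tet1 and Tet2 fell (21.6% were called lower). Dnmt3b rose by 2.82 on the log2 scale (SE 0.14, edgeR adjusted p = 9.98e-06), and its 3 day 4 libraries all lay above its 3 ESC libraries of 147, 155 and 191 CPM. Tet2 fell by 3.31 (SE 0.17, adjusted p = 1.03e-05), from 85.4 to 128 CPM in ESCs to 9.89 to 12.8 at day 4. Tet3 rose by 1.96, Dnmt3a by 1.64, and Tet1 fell by 1.21. Dnmt3l, at 43.8 to 69.1 CPM in ESCs and 32.1 to 44.5 at day 4, was not called (-0.57, SE 0.28, adjusted p = 0.131, range over alternatives 0.0409 to 0.335), except without the day 10 library of KI clone 27. Markers moved over the same days. Of 9 pluripotency markers 8 were called lower, from 8472.6 to 964 CPM in flox and from 6349.6 to 6856.9 to 1619.4 to 1687.1 in KI. All 5 formative epiblast markers were called higher, and of 7 trophoblast markers tested 5 higher and 1 lower, from 121 to 2238.1 CPM in flox and from 155 in both to 850 and 914 in KI. Of 13 replication markers 6 were called lower and 1 higher, from 5857.3 to 4606.3 CPM in flox and from 5800.1 to 5969.0 to 5219.2 to 5408.9 in KI. Their part in the result was not tested.

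From day 4 to day 10, 7 of 8 were again called, against 64.9% of all genes. Tet2 and Tet3 rose (32.3% of all genes were called higher), and Dnmt1, Uhrf1, Dnmt3b, Dnmt3l and Tet1 fell (32.6% were called lower). Dnmt3l had 688 to 904 reads in the day 4 libraries and 6, 17 and 8 at day 10, a log2 change of -6.48 (SE 0.41, adjusted p = 1.25e-05). Dnmt3b fell by 5.66 (SE 0.16), to 20.7, 27.2 and 24 CPM, and Tet1 fell by 2.85. Tet2, which had fallen by day 4, rose by 2.22 (SE 0.16), to 50.6 to 59.1 CPM. Dnmt3a was not called (-0.86, SE 0.38, adjusted p = 0.0789, range over alternatives 5.17e-05 to 0.263). It was called in a fit of the KI libraries alone, where it fell by 1.49. The call was also made without the flox library of day 10 (-1.52), day 4 (-1.17) or day 0 (-0.92). Its KI libraries fell from 635 and 627 CPM to 205 and 258, while the flox library went from 231 to 273. Over the same days all 13 replication markers were called lower, from 4606.3 to 1717.1 CPM in flox and from 5219.2 to 5408.9 to 2072.7 to 2257.5 in KI. Of the 5 mesothelium and fibroblast markers 4 were called higher, from 62.5 to 11341.5 CPM in flox and from 30.2 to 48.7 to 4634.8 to 10892.3 in KI. Pluripotency sums went from 964 to 129 CPM in flox and from 1619.4 to 1687.1 to 241 to 389 in KI. Formative epiblast sums went from 313 to 104 CPM and from 447 to 477 to 93.6 to 105. Heart sums rose from 71.4 to 1874.2 CPM and from 16.3 to 17.9 to 158 to 232. Extraembryonic endoderm sums rose from 274 to 1118.5 CPM and from 116 to 125 to 2032.2 to 2154.8. Their part in the result was not tested.

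Against flox, KI was compared over the 3 days together, since flox has 1 library a day. None of the 8 genes was called by edgeR, where 0.73% of all genes (121) were, and 5 of the 8 had an unadjusted p under 0.05, as did 2720 genes in all. DESeq2 called 1 of the 8, Tet3 (log2 fold change 0.58, adjusted p = 0.0479), and 777 genes. The largest estimate was Dnmt3a at 0.86 (SE 0.34, edgeR adjusted p = 0.273, range over alternatives 0.00737 to 0.508), which was called only without the day 10 flox library.

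Single days have no test. At day 0, both KI clones held Dnmt3a (228 and 191 CPM against 67.1) and Tet3 (16.3 and 13.5 against 6.34) at more than 2-fold the flox library. Of all genes 4.6% were 2-fold higher in both clones, and 7.21% were 2-fold apart in either direction. At day 4 Dnmt3a (635 and 627 against 231) and Tet1 (269 and 260 against 113) were more than 2-fold higher in both clones. So were 1.51% of all genes, and 5.26% were 2-fold apart in either direction. Dnmt3b, at 1351.1 and 1403.2 CPM against 813, was below 2-fold. At day 10 none of the 7 genes with at least 1 CPM was 2-fold apart in either direction, where 6.82% of all genes were. Beside these values, the 9 pluripotency markers summed to 964 CPM in the day 4 flox library and to 1619.4 and 1687.1 in KI, with none at 3 reads or fewer. The 5 formative epiblast markers summed to 313 against 447 and 477. The 8 trophoblast markers, with Elf5 at 3 reads or fewer, summed to 2238.1 CPM in flox and to 850 and 914 in KI, and the 10 extraembryonic endoderm markers to 274 against 116 and 125, with Ttr at 3 reads or fewer in both and Afp in flox. Whether the makeup of the EBs accounts for the differences was not tested.

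In neural cultures Dnmt1 was called higher in KI at both days, while Uhrf1 was called higher at day 8 and lower at day 16. Of these calls, only that of Uhrf1 at day 16 held under every alternative. At day 8, 2 of the 7 tested genes were called, both higher in KI, where 19.5% of all genes were called (6.3% higher and 13.2% lower). Dnmt1 held 328 and 329 CPM in flox and 458 and 419 in KI (log2 fold change 0.43, SE 0.10, edgeR adjusted p = 0.00976). Uhrf1 held 203 and 204 against 274 and 262 (0.41, SE 0.10, adjusted p = 0.0125). In both genes each KI library lay above both flox libraries. Leaving out either flox library or KI clone 27 ended both calls, with adjusted p of 0.0861, 0.0926 and 0.0752 for Dnmt1 and 0.102, 0.104 and 0.0863 for Uhrf1. At day 8, DESeq2 and a fit of the 4 libraries compared also called Dnmt3a (adjusted p = 0.0311 and 0.0498) and Tet1 (0.0318 and 0.00897), both higher in KI. The flox pair is the most alike in the series, with a chi-square of its counts over genes of 1.5 for each degree of freedom, where the other pairs gave 2.76 or more.

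At day 16, 5 of 7 were called, where 46.9% of all genes were. Dnmt1, Dnmt3a and Tet1 were higher in KI (27.1% of all genes were called higher), and Uhrf1 and Dnmt3b were lower (19.7% were called lower). Uhrf1 held 19.6 and 23.3 CPM in flox and 12.1 and 13.6 in KI, and fell by 0.71 (SE 0.11, adjusted p = 0.000251). Dnmt3b held 2.64 and 2.98 CPM in flox and 1.64 and 1.77 in KI, and fell by 0.68 (SE 0.15, adjusted p = 0.0026). Neither gene's groups overlapped, and both calls held under every alternative run.

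The 3 higher genes had smaller changes. Dnmt3a held 367 and 365 CPM in flox and 426 and 463 in KI (0.31, SE 0.09, adjusted p = 0.0165). Dnmt1 changed by 0.37 and Tet1 by 0.29. Scaling by library totals alone ended these 3 calls (adjusted p = 0.192 for Dnmt1, 0.374 for Dnmt3a and 0.504 for Tet1), as did a fit of the 4 libraries compared (0.0906, 0.146 and 0.232) and leaving out KI clone 48 (0.0752, 0.0802 and 0.0822). Leaving out flox library 1 ended the call of Dnmt1 (0.0543), and leaving out flox library 2 (0.106) or KI clone 27 (0.0727) that of Tet1.

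The KI effect differed between the days for 2 of the 7 genes, where 33.2% of all genes differed. For Uhrf1 the day 16 effect was lower by 1.12 on the log2 scale (SE 0.15, adjusted p = 0.000162), since it was higher in KI at day 8 and lower at day 16. For Dnmt3b the difference was -0.80 (SE 0.18, adjusted p = 0.00593). Between the days themselves, 7 of 7 genes were called in flox (77.1% of all genes) and 6 in KI (79.9%). Uhrf1 fell by 3.39 in flox and by 4.50 in KI, Dnmt3b fell by 2.78 and 3.58, and Dnmt1 fell by 1.27 and 1.33. Dnmt3a rose by 0.64 and 0.72 and Tet1 by 0.45 and 0.47. Tet3 rose in flox by 0.30 (adjusted p = 0.0168), a call that either day 8 flox library ended when left out (0.0796 and 0.088), and was not called in KI (0.06, adjusted p = 0.613). Tet2 fell by 0.34 in flox and by 0.23 in KI, the latter not called without KI clone 27 at day 8 (adjusted p = 0.294) or at day 16 (0.149).

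Markers of proliferation and DNA replication were read beside these values. At day 8, 8 of 13 were called higher in KI and none lower, with summed levels of 3366.6 to 3387.1 CPM in flox and 4246.6 to 4341.4 in KI. At day 16, 10 of 13 were called lower and none higher, from 440 to 443 CPM in flox to 296 to 303 in KI. None of the 13 was at 3 reads or fewer. The 7 neuronal markers were all called higher at day 16, from 3456.9 to 3776.5 CPM in flox to 6308.5 to 7022.4 in KI, and 6 of 7 were called lower at day 8, from 1234.1 to 1248.1 CPM to 809 to 923. All 5 mesothelium and fibroblast markers were called lower at day 16, from 3419.4 to 3680.8 CPM to 791 to 973, and 4 of 5 at day 8, from 238 to 240 CPM to 76.6 to 107. Of 9 extraembryonic endoderm markers tested at day 8, 7 were called lower and 1 higher, with sums of 227 to 228 CPM in flox and 199 to 225 in KI. At day 16, 3 of 5 glial markers were called lower and none higher, from 202 to 213 CPM to 80.8 to 82.6. The share of dividing cells was not measured, and the part of these markers' cells in the result was not tested.

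The genes whose group means were most like those of Uhrf1 over 18 groups, on log2(CPM + 0.5), were the replication genes Pole2 (Pearson r = 0.997), Mcm10 (0.995) and Mcm5 (0.992). For Dnmt1 they were Tra2a (0.944), Naa38 (0.937) and the base excision repair scaffold Xrcc1 (0.937). Dnmt1 and Uhrf1 themselves correlated at 0.88. Mcm5, a subunit of the replicative helicase, averaged 184 CPM in flox TE and 195 in KI TE, while Dnmt1 went from 311 ± 11.4 to 552 ± 51.7 (SD, n = 2). Of the 13 proliferation and DNA replication markers 6 were called lower and 2 higher in KI TE, from summed levels of 2902.5 to 2907.2 CPM to 2590.2 to 2801.7. These correlations describe the groups, which share culture series and depth, and the 3 genes were picked as the most alike of 14281.

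**Figure D3:**
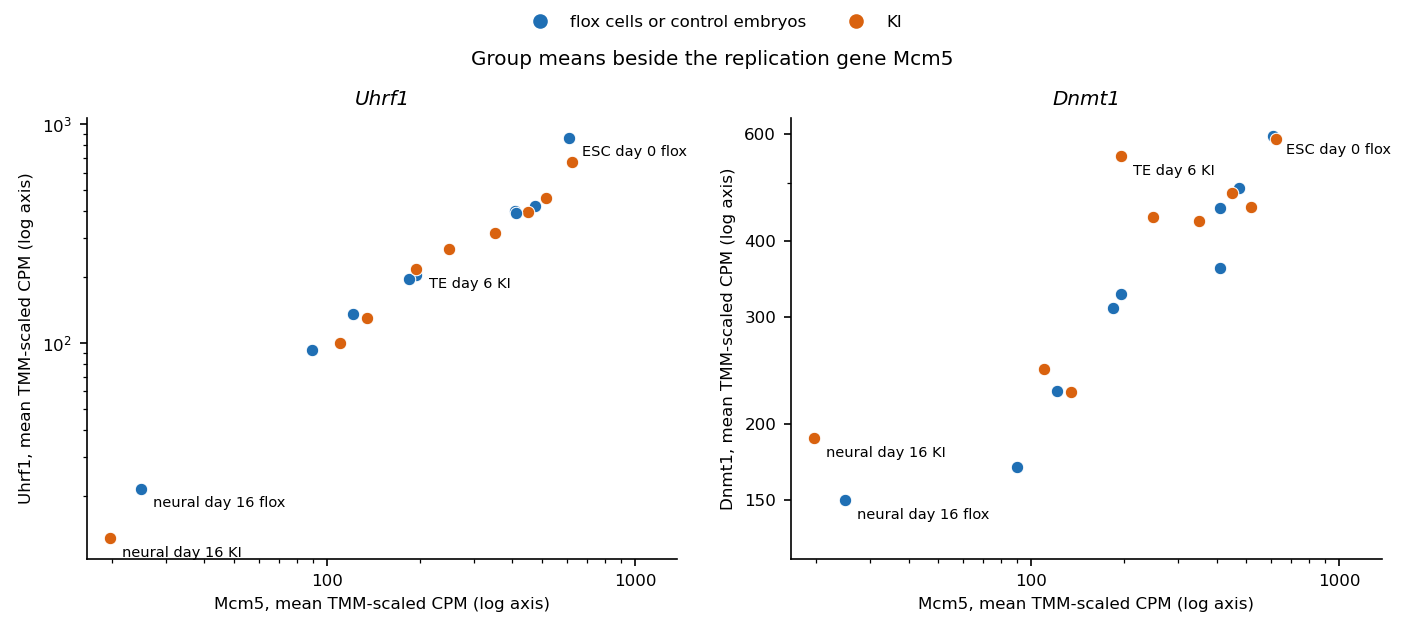
Each point is the mean of 1 group, with Mcm5 on the x axis and Uhrf1 or Dnmt1 on the y axis, all as TMM-scaled CPM on log axes. Uhrf1 follows Mcm5 closely, as fixed by the choice of Mcm5 from the genes most like Uhrf1 over these groups. The Dnmt1 mean of TE KI (552 CPM) lies far above that of flox TE (311 CPM) at a like level of Mcm5.

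The largest fitted KI differences of the 8 genes were those of Dnmt3l and Dnmt3b in ExEn, followed by Dnmt3l and Tet1 in TE. In TE, 6 of 8 genes were called (50.9% of all genes were). Dnmt1 and Uhrf1 were higher in KI (26.7% of all genes were called higher), and Dnmt3b, Dnmt3l, Tet1 and Tet2 were lower (24.2% were called lower). Dnmt1 held 319 and 303 CPM in flox and 588 and 515 in KI (0.84 on the log2 scale, SE 0.07, edgeR adjusted p = 2.31e-07). The 2 KI libraries lay well above the flox pair, and the call held under every alternative. Uhrf1 changed little (200 and 192 against 225 and 209 CPM, 0.16, SE 0.06, adjusted p = 0.0357), and 8 of the alternatives ended that call, among them DESeq2 (0.0916) and leaving out flox library 1 (0.116), flox library 2 (0.367) or KI clone 27 (0.308).

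Of the de novo genes in TE, Dnmt3l held 95.9 and 91.7 CPM in flox and 24.5 and 28.1 in KI, and fell by 1.82 (SE 0.13, adjusted p = 1.7e-07). Dnmt3b held 224 and 223 against 121 and 111 CPM, and fell by 0.93 (SE 0.07, adjusted p = 1.62e-07). Dnmt3a was not called (0.11, adjusted p = 0.21). Among the oxidation genes, Tet1 held 71.9 and 69.2 CPM in flox but 17.8 and 30.9 in KI (-1.52, SE 0.22, adjusted p = 0.000999), so the clones differed more than the flox libraries did. Tet2 fell by 0.47, and Tet3 lay between 50.6 and 52.1 CPM in all 4 libraries (0.01, adjusted p = 0.926).

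Pluripotency RNA moved with these genes. Of the 9 markers, 8 were called lower in KI TE and none higher, and their sum went from 1516.4 to 1524.5 CPM in flox to 490 to 630 in KI, with none at 3 reads or fewer. Of the 8 trophoblast markers, which include the induced Cdx2, 6 were called higher and 1 lower, from 3040.1 to 3103.6 CPM to 5145.0 to 5407.0. Formative epiblast sums fell from 185 to 193 CPM in flox to 108 to 117 in KI. Mesothelium and fibroblast sums fell from 82.3 to 82.9 CPM to 20.2 to 30.8, and neuronal sums from 96.3 to 101 CPM to 18.2 to 20.4. The genes most like Dnmt3l over 18 groups were the stem cell genes Utf1 (r = 0.978), Dppa5a (0.969) and D7Ertd143e (0.967). The part of remaining pluripotent cells, or of the other cells these markers stand for, in the lower Dnmt3l, Dnmt3b and Tet1 was not tested.

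In ExEn, 7 of 8 genes were called (35.5% of all genes were). Dnmt3a and Tet2 were higher in KI (18.1% of all genes were called higher), and Uhrf1, Dnmt3b, Dnmt3l, Tet1 and Tet3 were lower (17.4% were called lower). Dnmt3b held 137 and 139 CPM in flox and 24.6 and 20.4 in KI, and fell by 2.61 (SE 0.08, adjusted p = 3.85e-11). Dnmt3l held 268 and 319 reads (13.3 and 16.7 CPM) in flox and 34 and 15 reads (1.59 and 0.764 CPM) in KI, and fell by 3.64 (SE 0.23, adjusted p = 7.88e-08). The groups of both genes were far apart, and both calls held under every alternative. Per length, Dnmt3a thereby went from 24.9% ± 0.8 of the de novo RPKM in flox to 72.3% ± 4.4 in KI.

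Uhrf1 held 134 and 136 CPM in flox ExEn and 101 and 99.2 in KI, and fell by 0.43 (SE 0.06, adjusted p = 7.33e-05). Tet2 went the other way, from 39.1 and 37.8 to 50.5 and 54.3 CPM (0.45, SE 0.09, adjusted p = 0.00122). The groups did not overlap in either gene. Tet1 fell by 0.96 (SE 0.23, adjusted p = 0.0152), and its call ended with no filter on low counts (0.0601) and without flox library 2 (0.0661), KI clone 27 (0.13) or KI clone 48 (0.0879). Tet3 fell by 0.24 (adjusted p = 0.00788), a call lost without flox library 1 (0.069), flox library 2 (0.0538) or KI clone 48 (0.0611). The call of Dnmt3a (0.19, SE 0.07, adjusted p = 0.046) ended under 6 alternatives, among them DESeq2 (0.0848) and leaving out flox library 1 (0.186), flox library 2 (0.179) or KI clone 48 (0.196).

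Marker genes changed in KI ExEn too. All 10 extraembryonic endoderm markers were called lower, their sum going from 1988.5 to 1992.2 CPM in flox to 343 to 424 in KI, and 9 of the 13 replication markers were called lower, from 2242.6 to 2273.7 CPM to 1796.7 to 1810.9. Of the 9 pluripotency markers, 2 were called higher and 3 lower, with sums of 273 to 290 CPM in flox and 215 to 243 in KI. Of the 5 formative epiblast markers 4 were called lower and 1 higher, from 136 to 139 CPM to 68.5 to 72.7. Of the 5 mesothelium and fibroblast markers 3 were called lower and none higher, from 1937.2 to 2025.8 CPM to 232 to 380. The 8 trophoblast markers summed to 3192.2 to 3202.3 CPM in flox and to 3868.7 to 4527.9 in KI, with Elf5 at 3 reads or fewer in KI. Whether fewer endoderm cells go with the lower Dnmt3b and Dnmt3l was not tested.

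The KI effect differed between TE and ExEn for 6 of the 8 genes, where 35.3% of all genes differed. As TE minus ExEn, the difference was 0.71 for Dnmt1 (SE 0.09, adjusted p = 6.05e-05), 0.59 for Uhrf1, 1.68 for Dnmt3b, 1.82 for Dnmt3l, -0.92 for Tet2 and 0.25 for Tet3. Dnmt3b and Dnmt3l thus fell in both cultures, and less in TE. Tet2 fell in TE and rose in ExEn. Uhrf1 fell in ExEn, while the call of its small rise in TE ended under several alternatives, DESeq2 among them. The call of Tet3 (adjusted p = 0.0443) ended under 11 alternatives, DESeq2 (0.106) and 7 single libraries left out (0.0614 to 0.202) among them. With clone or flox replicate number as a replicate block, the difference of Tet1 was also called (-0.60, adjusted p = 0.0248, against 0.217 without the block), as it was without KI clone 48 of TE (-1.02, adjusted p = 4.25e-05). The clones pair by label, but the flox numbers do not (correlation of deviations -0.01).

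Between the cultures, 7 of 8 genes were called in flox (64.7% of all genes) and 7 in KI (63.1%). Dnmt3l was higher in TE by 2.64 in flox and by 4.46 in KI, Dnmt3b by 0.69 and 2.37, Dnmt1 by 0.46 and 1.17 and Uhrf1 by 0.54 and 1.13. Tet3 was lower in TE by log2 changes of -1.49 and -1.24, Tet2 by -0.32 and -1.24 and Dnmt3a by -0.26 and -0.34. In flox, leaving out flox TE library 1 ended the call of Dnmt3a (adjusted p = 0.0639) and flox ExEn library 1 that of Tet2 (0.0552). Tet1 was not called in flox (0.49, SE 0.21, adjusted p = 0.0807), but was by DESeq2 (0.0118), in a fit of only the libraries compared (4.07e-08) and with the replicate block (0.00461), which pairs flox libraries by number only. In KI it was not called either (-0.07, SE 0.23, adjusted p = 0.815), and the clones pulled in opposite directions: without TE clone 27 it was higher in TE (0.26, adjusted p = 0.0472), and without TE clone 48 lower (-0.53, adjusted p = 0.000963).

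**Figure D4:**
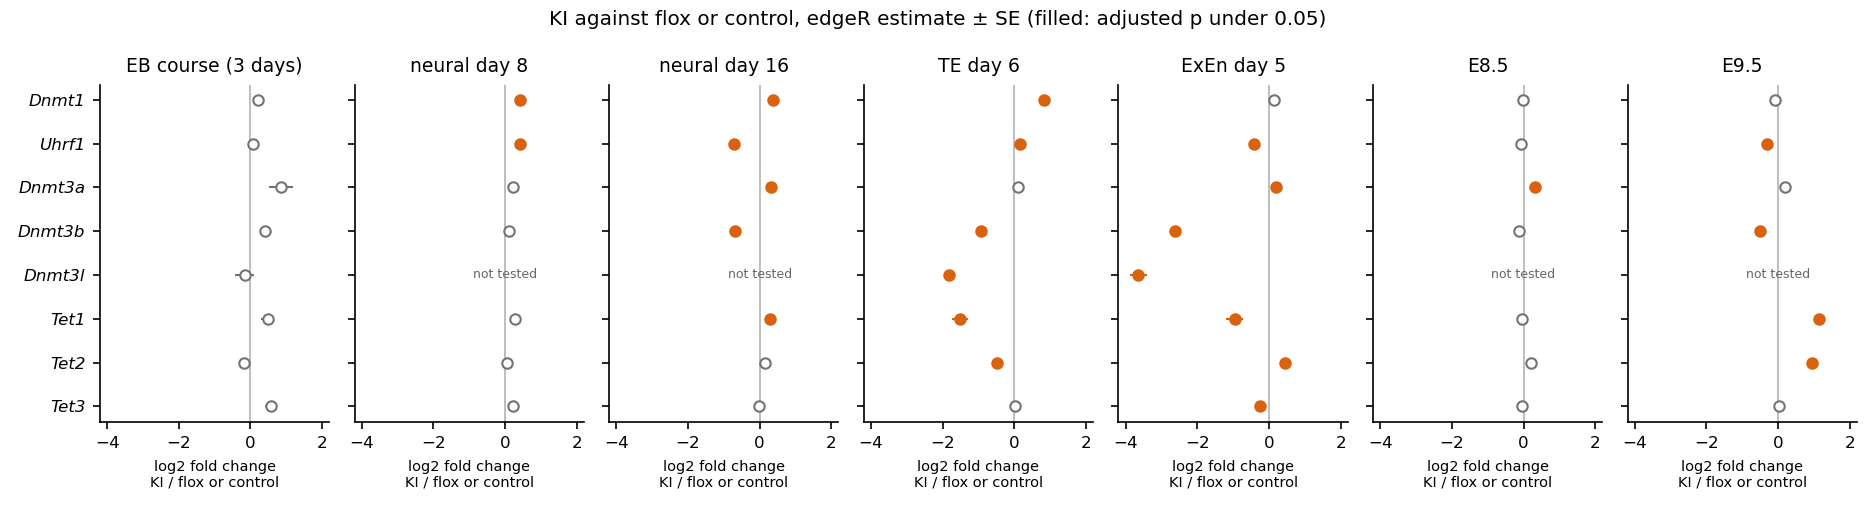
Points give the edgeR log2 fold change of KI against flox cells or control embryos with its SE, filled where the adjusted p is under 0.05. Dnmt3b and Dnmt3l have the largest falls, in ExEn (-2.61 and -3.64), and Tet1 and Tet2 are filled on the right at E9.5 (1.15 and 0.95).

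In whole embryos Tet1 and Tet2 were higher in KI at E9.5, and the difference from E8.5 was itself called. At E8.5, 1 of 7 tested genes was called, where 5.46% of all genes were (3.63% higher and 1.83% lower). Dnmt3a held 122, 135 and 133 CPM in controls and 167, 162 and 153 in KI (log2 fold change 0.31, SE 0.08, edgeR adjusted p = 0.0265). All 3 KI libraries lay above all 3 controls. Tissue markers also stood apart at E8.5. The 5 blood markers, none called, summed to 638 to 1217.5 CPM in controls and 101 to 180 in KI. The 8 trophoblast markers, 2 called higher, summed to 608 to 746 CPM in controls and 934 to 1104.2 in KI. Neural progenitor markers summed to 360 to 387 CPM in controls and 285 to 314 in KI, and glial markers to 74.2 to 89.3 and 58 to 67.4. Of 10 extraembryonic endoderm markers 3 were called higher, with overlapping sums of 326 to 561 and 341 to 569 CPM, and no replication marker was called. Their part in the result was not tested. Leaving out KI replicate 1 (adjusted p = 0.105), KI replicate 2 (0.0844), control replicate 1 (0.135) or control replicate 3 (0.0794) ended the call. With title number as a block over the embryo libraries of both stages, the call held and 1304 genes were called in place of 843.

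At E9.5, 4 of 7 were called, where 29.5% of all genes were. Tet1 and Tet2 were higher in KI (14.6% of all genes were called higher), and Uhrf1 and Dnmt3b were lower (14.9% were called lower). Tet1 held 19.5, 19.7 and 19.1 CPM in controls and 38, 48.8 and 43.9 in KI, and rose by 1.15 (SE 0.12, adjusted p = 7.86e-07). Tet2 held 20.1, 21.7 and 22 CPM in controls and 37.1, 46 and 41.1 in KI, and rose by 0.95 (SE 0.11, adjusted p = 3.27e-06). In both genes the lowest KI library was well above the highest control. Tet3 did not pass the test (0.02, SE 0.07, adjusted p = 0.844), at 90.7 to 98.7 CPM in controls and 90 to 102 in KI.

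Dnmt3b held 55, 54.6 and 57.9 CPM in E9.5 controls and 43.5, 38.5 and 36.1 in KI, and fell by 0.51 (SE 0.11, adjusted p = 0.00303). Uhrf1 held 414, 383 and 375 CPM against 322, 321 and 311, and fell by 0.30 (SE 0.06, adjusted p = 0.000433). Neither gene's groups overlapped, and these 4 calls held under every alternative. Dnmt1 (-0.08, adjusted p = 0.329) and Dnmt3a (0.19, adjusted p = 0.0742, range over alternatives 0.0247 to 0.326) were not called, though Dnmt3a was without control replicate 2 or KI replicate 1.

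The KI effect at E9.5 minus that at E8.5 was called for 2 of 7 genes, where 6.63% of all genes differed: Tet1 by 1.19 (SE 0.16, adjusted p = 0.000194) and Tet2 by 0.74 (SE 0.16, adjusted p = 0.00719). For Dnmt3b it was -0.37 (adjusted p = 0.178), which was called with title number as a block (-0.38, adjusted p = 0.0266), a fit that called 1547 genes in place of 1024, and without control replicate 1 of E8.5 (-0.52, adjusted p = 0.0288). For Uhrf1 it was -0.22 (adjusted p = 0.0988), called by DESeq2 (0.0221). From E8.5 to E9.5, 4 of 7 genes were called in controls (24.2% of all genes) and 5 in KI (32.5%). Tet1 fell by 0.61 in controls and rose by 0.58 in KI, both called (adjusted p = 0.000699 and 0.000672). Tet2 rose by 0.54 and 1.27, and Dnmt3b fell by 1.02 and 1.39. Dnmt3a rose by 0.29 in controls, not called without control replicate 1 of E8.5 (adjusted p = 0.0699) or control replicate 1 (0.0515) or 2 (0.0866) of E9.5. Uhrf1 fell by 0.32 in KI. Dnmt1, at -0.15 in KI, was not called (adjusted p = 0.0522, range over alternatives 0.0227 to 0.274). Tet3 rose by 0.21 in KI (adjusted p = 0.0342), a call that 5 alternatives ended (0.0557 to 0.214), among them leaving out KI replicate 1 or 2 of E8.5 and 2 or 3 of E9.5.

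Marker RNA of several tissues also differed at E9.5. All 5 heart markers were called higher in KI, from 263 to 358 CPM in controls to 581 to 1155.3. All 5 neural progenitor markers were called lower, from 519 to 703 CPM to 263 to 331, and 5 of 7 neuronal markers, from 143 to 218 CPM to 41.9 to 45.2. Of 13 replication markers 6 were called lower and none higher, from 4454.9 to 4619.5 CPM to 3898.2 to 4142.7. The 5 blood markers, of which 1 was called lower and none higher, summed to 1995.8 to 5624.2 CPM in controls and 399 to 1950.7 in KI. Of 8 trophoblast markers 5, and of 10 extraembryonic endoderm markers 4, were called higher and none lower. The part of these markers' tissues in the levels of Tet1, Tet2 and Uhrf1 was not tested.

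Partner genes of the pathway were read from lists chosen with the genes, and each count stands against the share of all genes called. In TE 26.7% of all genes were called higher and 24.2% lower, in ExEn 18.1% and 17.4%, at neural day 8 6.3% and 13.2%, at day 16 27.1% and 19.7%, at E8.5 3.63% and 1.83%, and at E9.5 14.6% and 14.9%. Of the 9 genes listed as methylation readers, 4 were called higher and none lower in KI TE, led by Mbd1 (log2 fold change 0.80, edgeR adjusted p = 3.17e-05) and Mbd2 (0.70, adjusted p = 6.38e-06). In KI ExEn 3 were higher and 2 lower, with Mbd4, a thymine glycosylase, at -0.54 (adjusted p = 0.0192, up to 0.143 under alternatives). At neural day 16, 2 were called higher and 1 lower, and each of these calls was lost under some alternative. At neural day 8 and E8.5 none was called, and at E9.5 1 was higher.

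Of 12 maintenance partners and methyl donor genes, 3 were called higher and none lower in KI at neural day 8, with a median log2 fold change of 0.25 against 0.00 over all genes. At day 16, 1 was higher and 4 lower, with a median of -0.24 against 0.09. Cdca7l (0.69 at day 8 and -0.92 at day 16), Cdca7 (0.38 and -1.07) and Shmt1 (0.57 and -0.87) changed sign between the days, with called differences of -1.61, -1.44 and -1.44. The day 8 call of Cdca7 was lost under some alternative (adjusted p up to 0.224). Hells, a chromatin remodeller that acts with CDCA7 in methylation maintenance, was called at day 16 (-0.50, adjusted p up to 0.241 under alternatives). In TE 2 of 12 were higher and 5 lower, in ExEn 1 and 7, and at E9.5 3 and 3, against the shares above.

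Of 14 genes of oxidised cytosine and base excision repair, 1 was called higher and 4 lower in KI neurons. The lower ones included Gadd45a (-1.93, adjusted p up to 0.0999 under alternatives), Gadd45b (-1.56) and Gadd45g (-1.44). In TE 2 of 14 were higher and 2 lower, both below the shares of all genes, in ExEn 5 and 3, with the glycosylase Neil2 at 1.71 in ExEn and 2.02 at E9.5. At E9.5 1 was higher and 3 lower. Among 18 targeting genes and modulators, 6 were higher and 8 lower in TE, where Prdm14, which represses Dnmt3b and Dnmt3l in naive cells, fell by 4.13 and Dppa3, which keeps UHRF1 from chromatin, fell by 2.70. In ExEn none was higher and 7 were lower, with Lin28a at -1.82. At E8.5 2 of 16 tested were higher, and at E9.5 4 were higher and 3 lower, with the TET partner Ogt at 0.69.

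Germline genes that DNA methylation is known to keep silent in somatic cells were read as a further list. In ExEn 11 of 13 were called higher in KI and none lower, and in TE 8 of 13 and none, where 18.1% and 26.7% of all genes were called higher. In each culture 4 of the 13 lay under the filter's minimum in at least 1 flox library: Hormad1, Asz1 and Tex101 in both, with Tuba3a in ExEn and Slc25a31 in TE. A gene that passes the filter only through its KI reads, as Asz1 did, had to differ. Of the other 9, 7 were called higher in ExEn and 5 in TE, and none lower. Their median log2 fold change was 1.55 in ExEn and 0.48 in TE, against 0.00 and 0.01 over all genes, and over all 13, with Asz1 at its bound, 2.35 and 1.11. Asz1, a germ cell gene, had 0 reads in all 4 flox libraries, 14 and 14 reads in KI TE and 15 and 19 in KI ExEn. Against a floor of 3 reads per library it was at least 4.33-fold higher in TE and at least 5.45-fold higher in ExEn. Slc25a31, a germ cell ADP/ATP carrier, had 15 and 14 reads in flox ExEn and 202 and 76 in KI, and in TE 6 and 16 against 194 and 143. Taf7l, a germ cell transcription factor subunit, had 37 and 29 reads in flox TE and 642 and 532 in KI. Tuba3a, a testis tubulin, had 6 and 14 reads in flox ExEn and 108 and 93 in KI. Groups of these genes did not overlap. The calls of Tex101 were lost under some alternatives (adjusted p up to 0.177 in ExEn and 0.154 in TE). At neural day 16, 3 of 9 were called higher and none lower, where 27.1% of all genes were called higher, but only 5 reached the minimum in both flox libraries and 1 of these was called. At neural day 8, 1 of 9 was called higher and 1 lower, and at E8.5 and at E9.5 none of the 4 tested was called. Methylation at these genes was not measured here.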

How the data were processed

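RNA of mouse cultures and embryos was sequenced, and 37 deposited tables of 29082 transcripts were used. Per the labels' protocols RNA was poly(A)-selected, while the labels of embryo, TE and ExEn samples name total RNA. Per the file headers, each deposited table gives a read count and an RPKM for each transcript. The deposited RPKM equals the count divided by length and table total to within a relative 5.4e-12. The submitters' processing notes name mm9, STAR, Bowtie2, bcl2fastq and SICER 1.1 without roles. The counter, its annotation and its use of strand are not given in the sources used here. RefSeq accessions matched symbols for 28436 transcripts, and 646 did not match. Each of 23109 genes was taken by its transcript with the most reads, which mattered for 3760 genes with several.

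Counts were tested with edgeR 4.0.16 in R 4.3.3 (filterByExpr with a minimum count of 10, TMM scaling, robust quasi-likelihood test, Benjamini-Hochberg adjustment over all genes tested). There were 4 fits: neural cultures, TE with ExEn, embryos, and ESCs with EBs, the last with genotype and day as additive terms. Alternatives were DESeq2 1.42.0, RLE size factors, library totals alone, no filter on low counts, sums over transcripts, only the libraries compared, a replicate block, and leaving out each library. In the fit of ESCs with EBs, only the libraries compared means the KI libraries of all days. The scripts were tested on simulated data. Counts of 3 reads or fewer are treated as a floor, and intervals and floors cover counting error only.

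The 8 genes and the companion and marker lists were chosen with earlier results of these data known. Of each companion list at most 4 called genes with the largest change are named, except 1 result that is not reported here, and of genes alike the 3 with the highest correlation on log2(CPM + 0.5), among 14281 with a group mean of at least 5 CPM. KI libraries of neural, TE and ExEn cultures pair by their clone label. Their deviations from group means correlated at 0.29 between neural days and 0.26 between TE and ExEn. Flox libraries share only a replicate number, which gave 0.10 and -0.01. At E8.5 the number shared in the titles of KI and control libraries gave 0.31, 0.36 and 0.15 in 3 pairs. At E9.5 the number 1508 gave 0.18. Title number was used as a block over the embryo libraries of both stages. The labels do not say what that number is.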

Additional observations from a re-analysis of the deposited data

Results flagged for a closer look

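The effect of KI differed between paired settings for 10 gene and contrast combinations, each by a test of the difference itself (edgeR quasi-likelihood, adjusted over all genes). Between neural day 16 and day 8 the difference in log2 fold change was -1.12 for Uhrf1 (SE 0.15, adjusted p = 0.000162) and -0.80 for Dnmt3b (SE 0.18, adjusted p = 0.00593). Between TE and ExEn it was 0.71 for Dnmt1 (SE 0.09, adjusted p = 6.05e-05), 0.59 for Uhrf1 (SE 0.08, adjusted p = 9.64e-05), 1.68 for Dnmt3b (SE 0.11, adjusted p = 7.49e-08) and 1.82 for Dnmt3l (SE 0.28, adjusted p = 0.000265). In the same contrast it was -0.92 for Tet2 (SE 0.13, adjusted p = 6.82e-05) and 0.25 for Tet3 (SE 0.09, adjusted p = 0.0443), a call that ended under 11 alternatives, with adjusted p up to 0.202. Between E9.5 and E8.5 it was 1.19 for Tet1 (SE 0.16, adjusted p = 0.000194) and 0.74 for Tet2 (SE 0.16, adjusted p = 0.00719).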

How the results depend on the processing

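Of 85 calls of the 8 genes in 134 tests, 68 were kept under every alternative run. Over 1042 repeats of a call 974 were kept, 68 were lost and 0 reversed, and leaving out single libraries lost 48 of 486. With the replicate block 56 of 56 calls were kept, and Tet1 in TE against ExEn (difference of KI effects -0.60, flox lineages 0.49) and Dnmt3b in embryos (-0.38) were added. The number of the 8 genes called moved from 2 to 4 at neural day 8 with DESeq2 and with only the libraries compared, and ranged from 0 to 3 with 1 library left out. At neural day 16 it moved from 5 to 2 with library totals only and with only the libraries compared, and ranged from 2 to 4 with 1 library left out. In ExEn, where 7 were called, it lay between 4 and 6 in the leave-one-out fits that changed it, and at E8.5 it went from 1 down to 0 with 1 library left out. For KI over the EB course it went from 0 to 1 with DESeq2 and up to 1 with 1 library left out.

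Counts over all genes moved by more than 1.5 times in these cases. At neural day 8, 3202 became 1950 and 1896 without flox replicate 1 or 2 and 2111 without KI clone 48, and the difference between neural days went from 5450 to 3621 without day 8 flox replicate 2. In ExEn, 5520 became 3641 and 3651 without flox replicate 1 or 2. At E8.5, 843 became 1304 with the block, and 546, 488, 377 and 363 without KI replicate 1, control replicate 1, KI replicate 3 or control replicate 3. The embryo difference went from 1024 to 1547 with the block, to 654 without control replicate 3 of E8.5 and to 607 without KI replicate 2 of E9.5. For the EB course, 121 became 777 with DESeq2, 274 to 332 without a flox library and 26 to 79 without a KI library. The causes were not tested. Where a group is left with 1 library, that library is assumed to vary like the others. Dnmt3l had 7 reads or fewer in each neural and embryo library. Of the alternatives that tested it there, only sums over transcripts gave calls, between neural days in flox and in KI, from equal counts of 2 transcripts added together.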

Other observations

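Genes most like the other members over the 18 group means, on log2(CPM + 0.5), were named by the same rule and are a description of groups that share culture series and depth. For Dnmt3b they were Xpo7 (r = 0.961), Abcd4 (0.935) and Foxh1 (0.927), the last a nuclear partner of Nodal signalling. For Dnmt3a the closest were Pde1c (0.802), Adgrb2 (0.802) and Bcl11b (0.796), lower than for any other of the 8 genes. Tet1 was closest to Mllt6 (0.936), Tet2 to Cggbp1 (0.879) and Tet3 to Sox4 (0.972), a transcription factor of progenitor cells. Among the 8 genes, Dnmt3b correlated at 0.74 with Dnmt3l and at 0.78 with Uhrf1. Tet3 correlated at -0.66 with Tet1, and more negatively with Dnmt3l (-0.77), Dnmt1 (-0.71), Uhrf1 (-0.71) and Dnmt3b (-0.68).

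Dnmt3a is listed with a longer and a shorter transcript. Over the 37 libraries the shorter had 64.74% of the reads of the longer, where its length is 55.7% of the longer. The group means ran from 56.3% in flox neurons to 74.7% in KI embryos at E8.5. Reads shared by both cannot be assigned to one from these tables.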
